A study of Macaca radiata with 6 samples.

Results

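Expression of the nuclear receptor coactivators NCOA2 and NCOA3 and of the corepressors NCOR1 and SIN3A was examined in the corpus luteum (CL) of bonnet monkeys during induced luteal regression. All probe sets (groups of short probes that together read a transcript) whose single gene symbol in the platform annotation was one of these 4 names were taken, whatever their values. The 4 genes, of 14132 named by a single-symbol probe set, had 15 such probe sets among the 52707 tested: 3 for NCOA2, 6 for NCOA3, 5 for NCOR1 and 1 for SIN3A. Within a gene they are numbered from the highest to the lowest mean signal.

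Adult female monkeys received a single s.c. injection of Cetrorelix (CET), which blocks the GnRH receptor and so deprives the CL of pituitary LH, at 150 µg/kg BW on day 7 of the luteal phase, or 5.25% glucose as vehicle (VEH) on the same day. CL were collected 24 h later, and RNA of 3 CET samples (replicates 1 to 3) and 3 VEH samples (replicates 4 to 6) was hybridised to 1 Affymetrix rhesus macaque array each, so that bonnet monkey transcripts were read by probes designed for a related species. Both groups are described as collected from the same monkeys, although the labels do not pair the samples. The study picked its progesterone responsive genes, NCOA2, NCOA3 and NCOR1 among them, partly from these arrays by a criterion of 1.5-fold, so a difference at those 3 genes is not independent evidence of its direction.

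NCOA2 and NCOA3 belong to the p160 family of coactivators, which bind the ligand-occupied progesterone, estrogen and other nuclear receptors and bring acetyltransferases such as p300 and CBP to the promoter. NCOR1 is a corepressor that sits on unliganded or antagonist-bound receptors and carries the histone deacetylase HDAC3. SIN3A is the scaffold of a separate deacetylase complex built on HDAC1 and HDAC2, and the balance of such coactivators and corepressors is known to set how a steroid hormone signal is read in reproductive tissues.

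In brief, the brightest probe set of NCOA2 and the probe set of SIN3A had a lower mean signal in CET than in VEH samples, the brightest probe set of NCOA3 a higher mean and that of NCOR1 a mean close to VEH, but none of these differences passed the test. The other probe sets of NCOA2, NCOA3 and NCOR1 did not repeat the sign of the brightest one throughout. Fold changes are given as differences of mean quantile-normalized log2 signal, CET minus VEH. They were tested by limma over all 52707 probe sets with Benjamini-Hochberg adjustment, and a probe set was called dim when its mean lay at or below the 40th percentile of all probe sets, a log2 signal of 7.43. The sources do not tie the 6 samples to individual animals, so the p-values measure only the spread between these samples.

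The arrays differed in the ratio of 3' to 5' signal of housekeeping control transcripts, which is high where RNA is degraded. For GAPDH the ratio was 5.89, 142.9 and 3.03 in CET replicates 1, 2 and 3, and 7.31, 1.79 and 3.07 in VEH replicates 4, 5 and 6. For actin it was 37.2 in CET replicate 2 and 22.4 in VEH replicate 4, and for EF1A 42.2 and 9.56. The other arrays had 2.12 to 9.42 for actin and 0.846 to 4.68 for EF1A. The mean log2 ratio over these controls was highest in CET replicate 2 (5.92), then in VEH replicate 4 (3.54) and CET replicate 1 (2.67). CET replicate 1 had a mean Spearman rho of 0.756 with the VEH arrays and of 0.664 with the other CET arrays. The luteal markers STAR, INHA, HSD3B2 and CYP19A1 were above the dim limit on all 6 arrays and NR5A1 on 5, and of 4 epithelial markers KRT8 and KRT18 were above it on 5 arrays each, and EPCAM and KRT7 on none. KRT18 had a log2 fold change of -1.82 with groups that did not overlap, and its part in the results below was not tested. The mean log2 signal of these 5 luteal markers was 11.62 to 12.11 in CET and 12.26 to 13.29 in VEH samples. Only STAR among them had groups apart (log2 fold change -1.49), and NR5A1 was at -0.11. The small gap between these ranges is therefore not read as a loss of luteal cells. Of 5 measured endothelial markers 4 had means below VEH and 1 above, and of 5 measured fibroblast markers 3 and 2. In whole tissue, a change in cell numbers and one in RNA per cell cannot be told apart.

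NCOA2, the coactivator also known as TIF2 or GRIP1, was read by 3 probe sets. At probe set 1 (MmuSTS.1003.1.S1_at) the deposited signals were 1207, 445 and 650.1 in CET replicates 1, 2 and 3, against 1290.4, 1497 and 1134 in VEH replicates 4, 5 and 6. After normalization they were 10.32, 8.74 and 9.23 in CET and 10.37, 10.43 and 10.14 in VEH samples on the log2 scale. CET replicate 1 lay within the narrow range of the VEH arrays, and CET replicates 2 and 3 lay below it. The mean log2 signal was 9.43 ± 0.81 in CET and 10.31 ± 0.15 in VEH samples (SD, n = 3 each), a log2 fold change of -0.88 (standard error 0.50, 95% interval -1.98 to 0.21) with a limma adjusted p of 0.83. Without CET replicate 1 it was -1.33 and the groups did not overlap, as at 31.9% of all probe sets without that array. Without CET replicate 2 it was -0.54. After adjustment for the 3' to 5' ratio it was -0.72.

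Probe set 2 of NCOA2 (MmugDNA.39363.1.S1_at) had log2 signals of 9.63, 8.80 and 7.97 in CET and 8.66, 9.21 and 9.76 in VEH samples. The groups overlapped, with CET replicate 3 below every VEH array, and the log2 fold change was -0.41 (standard error 0.58), or 0.0075 without CET replicate 3. Probe set 3 (MmugDNA.14872.1.S1_at) was dim, with 7.26, 7.37 and 6.68 in CET and 7.45, 7.17 and 6.16 in VEH samples. Here the lowest array was VEH replicate 6, and the log2 fold change was 0.18 (standard error 0.74). CET replicates 2 and 3, both below every VEH array at probe set 1, were so at probe set 2 only for replicate 3, and at probe set 3 for neither.

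NCOA3, the coactivator also known as SRC-3 or AIB1, had the most probe sets. At probe set 1 (MmuSTS.1945.1.S1_at) the deposited signals were 711, 421 and 896 in CET replicates 1, 2 and 3, against 266, 269 and 425 in VEH replicates 4, 5 and 6. The normalized log2 signals were 9.53, 8.67 and 9.75 in CET and 8.02, 8.33 and 8.77 in VEH samples. CET replicates 1 and 3 lay above all VEH arrays, and CET replicate 2 lay just under VEH replicate 6. The mean log2 signal was 9.32 ± 0.57 in CET and 8.37 ± 0.37 in VEH samples (SD, n = 3 each). The log2 fold change was 0.94 (standard error 0.54, 95% interval -0.23 to 2.12), with a limma adjusted p of 0.83. It stayed positive when any single array was left out, between 0.73 without CET replicate 3 and 1.27 without CET replicate 2, and it was 1.26 after adjustment for the 3' to 5' ratio.

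Probe set 5 of NCOA3 had a difference of the same sign at a smaller size. Its log2 signals were 8.59, 8.29 and 8.93 in CET and 8.21, 8.05 and 8.37 in VEH samples, a log2 fold change of 0.39 (standard error 0.54). As at probe set 1, only CET replicate 2 lay within the VEH range. Probe sets 1 and 5 are the NCOA3 probe sets for which the annotation lists a sequence record of their own, and their Pearson correlation over the 6 arrays was 0.92, a description over points that share the same RNA and arrays.

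The other NCOA3 probe sets did not follow these. Probe set 2 (MmugDNA.34015.1.S1_at) had log2 signals of 7.92, 7.27 and 9.85 in CET and 9.15, 8.84 and 9.41 in VEH samples. CET replicate 3 was the highest and CET replicate 2 the lowest of the 6 arrays, so that the log2 fold change of -0.78 (standard error 0.68) was sensitive to both, at -1.54 without CET replicate 3 and -0.25 with CET replicate 2 omitted, and it was -0.29 after the ratio adjustment. Probe set 3 (MmugDNA.32690.1.S1_at) had 9.43, 8.81 and 7.44 in CET and 9.19, 8.36 and 9.20 in VEH samples, a log2 fold change of -0.36 (standard error 0.63) that was 0.21 without CET replicate 3 and -0.66 after the ratio adjustment. That array was the highest at probe set 2 and the lowest at probe set 3 of the same gene. Probe set 4 (MmugDNA.32688.1.S1_at) had 8.37, 8.79 and 8.79 in CET and 8.28, 8.68 and 9.15 in VEH samples. Its log2 fold change was -0.05 (standard error 0.53), and its sign turned to 0.13 with the signals as deposited. Probe set 6 (MmugDNA.23067.1.S1_at) was dim, and its log2 signals of 4.22, 6.68 and 7.66 in CET enclosed those of 5.83, 5.48 and 6.24 in VEH samples.

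**Figure D1:**
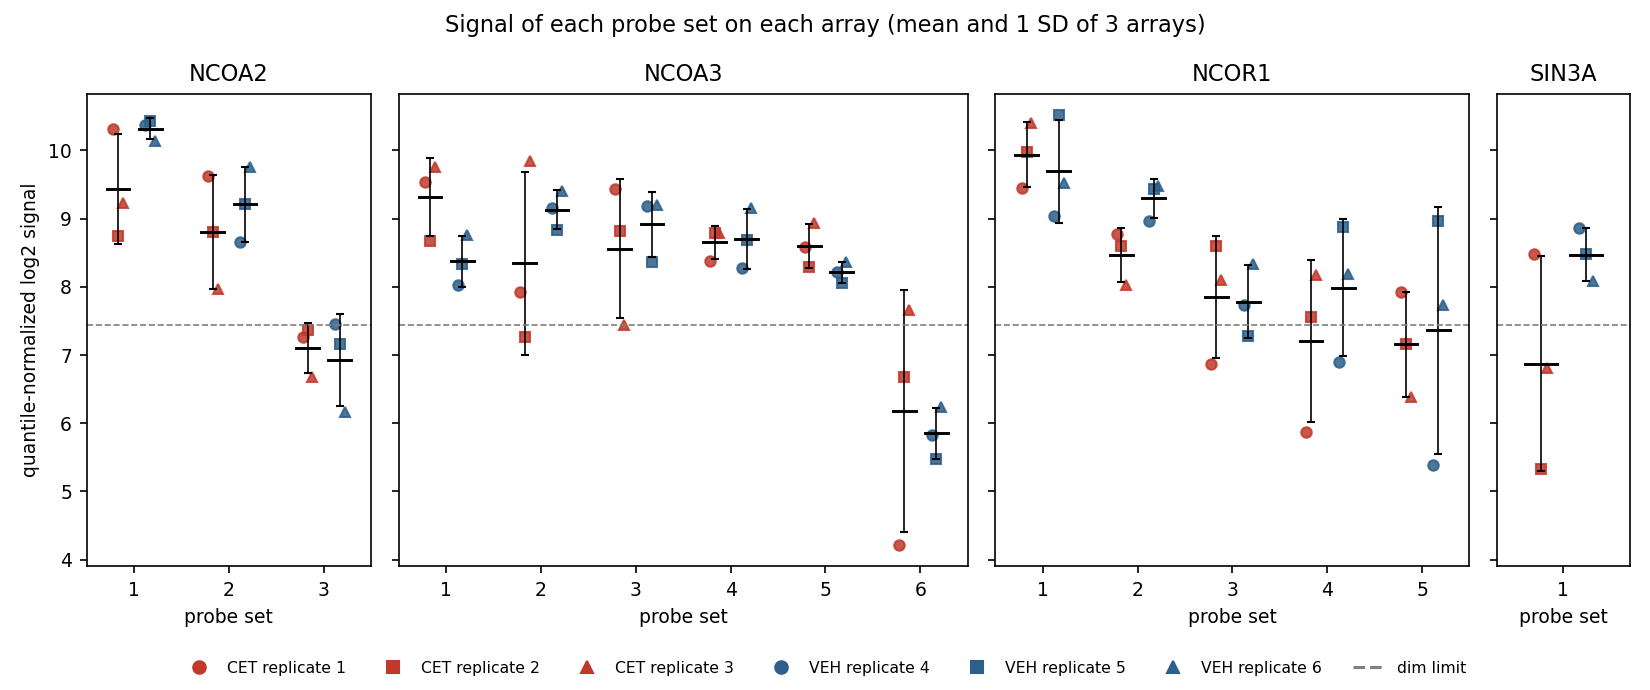
Quantile-normalized log2 signal (vertical axis) of each of the 15 probe sets (horizontal axis, numbered within each gene) on the 3 CET arrays, in red, and the 3 VEH arrays, in blue. Black bars are group means with 1 SD, the dashed line is the dim limit of 7.43, and the groups are apart only at NCOR1 probe set 2.

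NCOR1 had 5 probe sets. At probe set 1 (MmugDNA.40146.1.S1_at) the deposited signals were 672, 1056 and 1317 in CET replicates 1, 2 and 3, against 512, 1596 and 727 in VEH replicates 4, 5 and 6. The normalized log2 signals were 9.44, 9.97 and 10.41 in CET and 9.04, 10.52 and 9.52 in VEH samples. VEH replicates 4 and 5 were the lowest and the highest of all arrays and enclosed the CET arrays. The mean was 9.94 ± 0.48 in CET and 9.69 ± 0.75 in VEH samples (SD, n = 3 each), a log2 fold change of 0.25 (standard error 0.52, 95% interval -0.89 to 1.38) with a limma adjusted p of 0.94. Without VEH replicate 4 it was -0.08, and after adjustment for the 3' to 5' ratio it was 0.48.

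Probe set 2 of NCOR1 (MmugDNA.8091.1.S1_at) was the only member at which the groups did not overlap. The deposited signals were 449, 399 and 292 in CET replicates 1, 2 and 3, against 487, 662 and 708 in VEH replicates 4, 5 and 6. The normalized log2 signals were 8.77, 8.60 and 8.02 in CET and 8.97, 9.44 and 9.48 in VEH samples. The gap between the groups, from CET replicate 1 to VEH replicate 4, was small beside the spread within each group. The mean was 8.47 ± 0.40 in CET and 9.30 ± 0.29 in VEH samples (SD, n = 3 each). The log2 fold change was -0.83 (standard error 0.51, 95% interval -1.94 to 0.28), the limma adjusted p was 0.83, and the two-sided exact permutation test gave 0.1, the smallest p that 3 against 3 samples allow. It lay between -0.99 and -0.61 when single arrays were left out, and was -0.85 after the ratio adjustment. Over all probe sets, 11.2% had groups that did not overlap, 5.25% with CET lower, so that 1 of 15 is near the background.

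The other NCOR1 probe sets had wide spreads. Probe set 3 (MmugDNA.19946.1.S1_at) had log2 signals of 6.86, 8.61 and 8.10 in CET and 7.73, 7.27 and 8.34 in VEH samples, a log2 fold change of 0.07 (standard error 0.69). Probe set 4 (MmugDNA.8095.1.S1_at) had 5.87, 7.56 and 8.18 in CET and 6.89, 8.88 and 8.19 in VEH samples. Its lowest array was CET replicate 1, and the log2 fold change of -0.78 (standard error 0.82) was -0.12 without that array, -1.33 without VEH replicate 4 and -0.48 after the ratio adjustment. Its mean lay under the dim limit in CET samples only. Probe set 5 (MmugDNA.8094.1.S1_at) was dim, and its lowest and highest arrays were both VEH samples, with 7.93, 7.16 and 6.39 in CET and 5.39, 8.96 and 7.73 in VEH samples.

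SIN3A was read by 1 probe set (MmugDNA.22134.1.S1_at), with deposited signals of 379, 40.4 and 132 in CET replicates 1, 2 and 3, against 456, 301 and 264 in VEH replicates 4, 5 and 6. The normalized log2 signals were 8.48, 5.33 and 6.81 in CET and 8.86, 8.48 and 8.08 in VEH samples. CET replicate 1 stood level with VEH replicate 5, whereas CET replicates 2 and 3 lay below every VEH array. The mean was 6.87 ± 1.57 in CET, under the dim limit, and 8.47 ± 0.39 in VEH samples (SD, n = 3 each). The log2 fold change of -1.60 (standard error 0.83, 95% interval -3.41 to 0.21) was larger in size than at 93.0% of all probe sets, but the limma adjusted p was 0.83. It was -2.40 without CET replicate 1, when the groups did not overlap, as at 31.9% of all probe sets without that array. It was -0.83 when CET replicate 2 was omitted instead. After adjustment for the 3' to 5' ratio it was -1.25.

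SIN3A and probe set 1 of NCOA2 had the same ranking of the CET arrays, with replicate 1 at the level of VEH and replicate 2 lowest. Their Pearson correlation over the 6 arrays was 0.98, while the other 5 pairs among the brightest probe sets of the 4 genes had correlations between -0.42 and 0.28. Such a profile was common on these arrays. Of 10925 other genes above the dim limit, 682 had a correlation above 0.9 with NCOA2 and 553 with SIN3A, against 39 with NCOA3 and 33 with NCOR1. The 3 genes most like NCOA2 were SECISBP2L, PCBP1 and SELENON (Pearson correlation of 0.998 for the first), and those most like SIN3A were MGARP, PRG4 and PDCD6 (0.998 for the first). For NCOA3 they were CRYGN, ANKS1B and CCL3 (0.981 for the first) and for NCOR1 SEMA4D, DNAJA1 and PFDN5 (0.997 for the first). The correlation of the mean log2 3' to 5' ratio with the signal over the 6 arrays was -0.53 at NCOA2 probe set 1, -0.56 at SIN3A, -0.22 at NCOA3 probe set 1 and -0.36 at NCOR1 probe set 1. The part of RNA quality in the member differences was not tested beyond the adjusted fold changes given above.

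**Figure D2:**
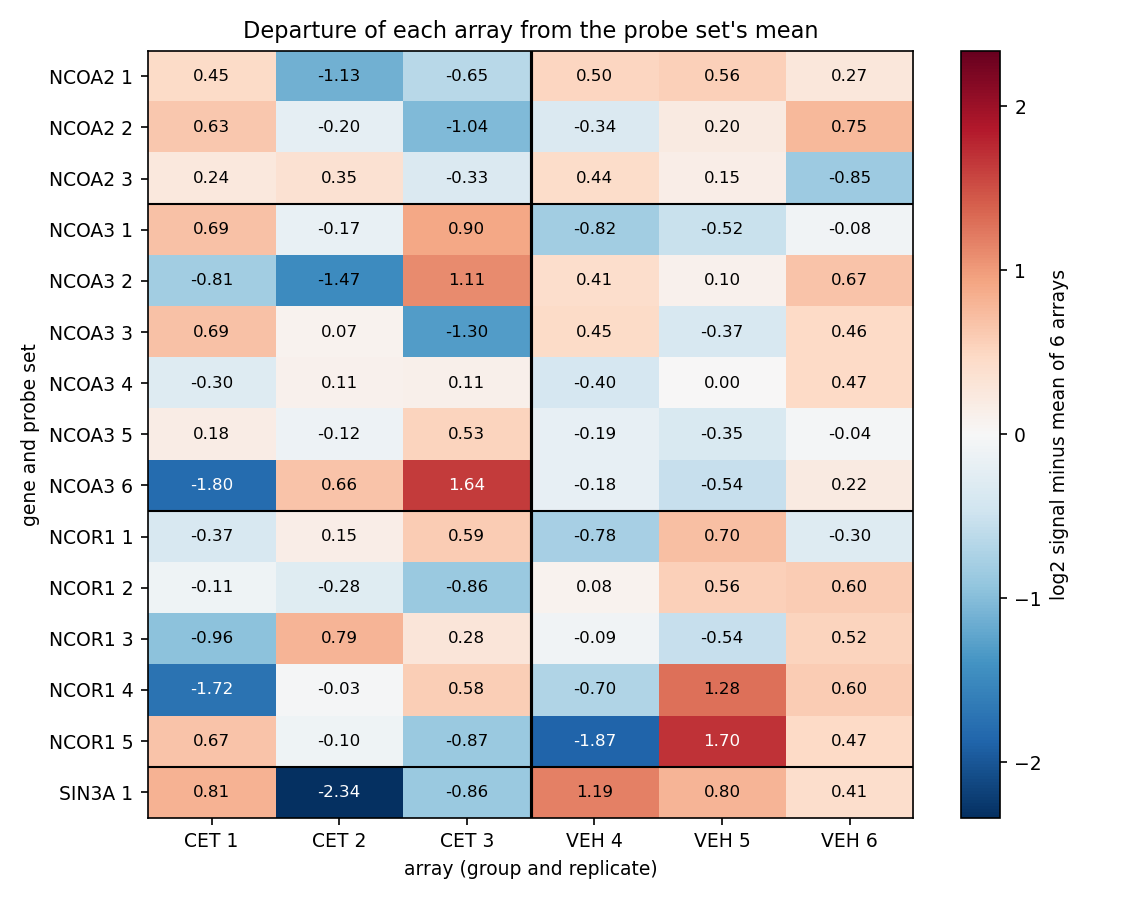
Log2 signal of each array minus the mean of the 6 arrays (colour and printed value), for the 15 probe sets (rows) on the CET arrays (left) and the VEH arrays (right). The NCOA2 probe set 1 and SIN3A rows are both low in CET replicates 2 and 3, whereas CET replicate 3 is high at NCOA3 probe set 2 and low at NCOA3 probe set 3.

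Over all 15 probe sets, the mean of CET samples was above that of VEH samples at 6 and below it at 9 (above at 50.1% of all probe sets), and the median log2 fold change was -0.20, beside 0.0025 over all 52707 probe sets. Of the 15, 12 were above the dim limit. Over the 31624 probe sets above that limit, the mean was above at 47.4% and the median log2 fold change was -0.048. None of the 15 passed the limma adjusted p of 0.05, and none of the 52707 did either (0% called). No member reached an unadjusted limma p under 0.05, a level met by 5.39% of all probe sets. By size alone, 1 member was over 1.5-fold higher in CET (NCOA3 probe set 1) and 5 were over 1.5-fold lower (NCOA2 probe set 1, NCOA3 probe set 2, NCOR1 probe sets 2 and 4, and SIN3A), where 23.9% and 23.8% of all probe sets were. The 95% interval of every member included 0, and the standard errors of 0.50 to 0.98 show what 3 arrays a group can resolve. The SD was larger in CET than in VEH samples at 11 of the 15. The share over all probe sets was not counted, so this is not read as a trait of the members. Over all probe sets, the mean Spearman rho of an array with its own group was 0.664 to 0.710 in CET and 0.775 to 0.812 in VEH samples.

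**Figure D3:**
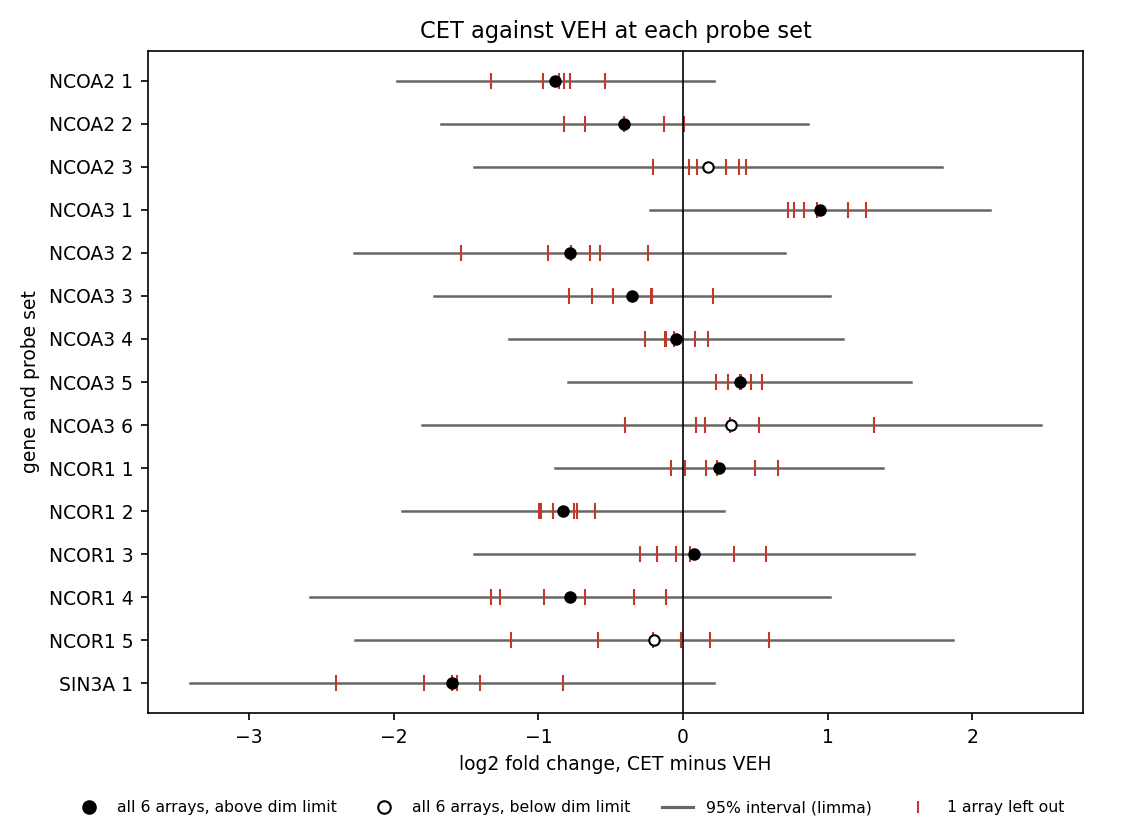
Log2 fold change, CET minus VEH (horizontal axis), of each probe set (rows), as a filled point above and an open point below the dim limit, with its 95% interval from limma (grey line) and the value with each single array left out (red ticks). All 15 intervals include 0, and the ticks stay on 1 side of 0 at 7 of the 15, among them SIN3A, NCOA3 probe set 1 and NCOR1 probe set 2.

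Agreement between the probe sets of a gene was then compared. In none of the 3 genes with more than 1 probe set did all fold changes have the same sign. Among all 6375 genes with 2 or more probe sets, 43.4% had a single sign. The share was 33.5% of 1648 genes with 3 probe sets, as NCOA2 has, 17.6% of 267 genes with 5, as NCOR1 has, and 13.3% of 98 genes with 6, as NCOA3 has. Mixed signs were thus the more usual case on these arrays. The distance between the highest and the lowest log2 fold change of a gene was 1.06 for NCOA2, 1.73 for NCOA3 and 1.08 for NCOR1, against medians of 1.23, 1.89 and 1.76 over genes with the same number of probe sets.

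The median Pearson correlation between probe sets of a gene over the 6 arrays was -0.0016 for NCOA2, 0.14 for NCOA3 and 0.28 for NCOR1, beside 0.083 over all genes with 2 or more. Within NCOA3 the pairs ranged from -0.73, between probe sets 3 and 6, to 0.92, between probe sets 1 and 5, and 5 of 15 pairs were below 0. In NCOR1 they ranged from -0.36 to 0.72, the highest between probe sets 1 and 4, with 3 of 10 below 0. In NCOA2 they ranged from -0.20 to 0.56, with 2 of 3 below 0.

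Whether probe sets of a gene differed in response was tested on the difference between the brightest and each other probe set on each array, in 11 pairs. The CET and VEH differences did not overlap in 3 pairs. Probe set 1 of NCOA3 exceeded probe set 2 in log2 fold change by 1.73 and probe set 4 by 0.997, and probe set 1 of NCOR1 exceeded probe set 4 by 1.03. Each had a two-sided exact permutation p of 0.1, the smallest possible, and 0.31 after Benjamini-Hochberg adjustment over the 11 pairs, so this design could not call any pair at 0.05. For NCOR1 the log2 fold change was 0.25 at the brightest probe set, -0.30 as a mean and -0.20 as a median over its 5 probe sets.

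The partners of these cofactors were read from 5 lists at the brightest probe set of each gene. Of 58 listed genes with a probe set of that name, 53 were above the dim limit, and the mean of CET samples was above that of VEH samples at 23 of these and below it at 30, where it was above at 42.3% of all genes over the limit. None passed the limma adjusted p. At an unadjusted limma p under 0.05 there were 3 genes, all lower in CET, beside 5.29% of the 10929 genes above the dim limit, 3.19% of them lower in CET. The groups did not overlap at 8 genes, all lower in CET, where 7.02% of all genes above the limit had groups apart with CET lower. These counts include ING2, whose mean was above the limit in VEH samples only; among the other 52 genes there were 2 at that p and 7 with groups apart. With array medians subtracted, the mean of CET samples was above that of VEH samples at 12 of the 53 and below it at 41, where it was above at 34.6% of all genes over the limit. Without CET replicate 1 these counts were 18 and 35, where 43.3% of all genes over the limit were above. The median log2 fold change over the 53 was -0.15, and over all 10929 genes it was -0.13.

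Among the other coactivators, NCOA4 and NCOA5 were the NCOA genes with a probe set of that name. NCOA4, known both as an androgen receptor coactivator and as the receptor for ferritin turnover, had log2 signals of 11.79, 10.87 and 11.55 in CET and 12.07, 12.20 and 11.92 in VEH samples, a log2 fold change of -0.66 (standard error 0.40) that was -0.39 without CET replicate 2. Once array medians were subtracted it was -1.10. NCOA5 had 9.09, 8.87 and 9.11 in CET and 9.39, 9.37 and 9.19 in VEH samples, a log2 fold change of -0.30 (standard error 0.46). With the signals as deposited it was -0.18. Both were lower on every CET array than on any VEH array, and neither passed the test.

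Of 17 measured acetyltransferase, methyltransferase, Mediator and remodelling coactivators, 8 had means above VEH and 9 below, with a median log2 fold change of -0.23. With array medians subtracted 3 were above and 14 below, where 34.6% of all genes above the dim limit were above. Without CET replicate 1 these counts were 4 and 13, where 43.3% of all such genes were above. The median was -0.061 without CET replicate 2. CREBBP, the acetyltransferase CBP that p160 coactivators recruit, had log2 signals of 9.83, 8.98 and 9.03 in CET and 10.04, 9.97 and 10.08 in VEH samples, a log2 fold change of -0.75 (standard error 0.46). EP300, the acetyltransferase p300, had overlapping groups and a log2 fold change of 0.16 (standard error 0.48). PRMT1, an arginine methyltransferase that acts as a secondary coactivator, had 10.64, 7.06 and 8.28 in CET and 11.05, 10.57 and 10.15 in VEH samples, a log2 fold change of -1.93 (standard error 0.77). As at SIN3A, CET replicate 1 of PRMT1 lay among the VEH arrays and CET replicate 2 was lowest, and the difference was -1.13 without the second and -2.92 without the first of these arrays.

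In the NCOR and SMRT complex, 4 of 6 measured genes had means above VEH and 2 below, with a median log2 fold change of 0.14. With array medians subtracted 3 were above and 3 below, with a median of 0.014, and as deposited 5 and 1. Without CET replicate 1 the median was 0.37, and without VEH replicate 6 it was 0.060. HDAC3, the deacetylase bound by NCOR1, had log2 signals of 10.02, 10.24 and 10.31 in CET and 9.65, 10.09 and 10.03 in VEH samples, a log2 fold change of 0.26 (standard error 0.42). It was 0.035 once array medians were subtracted, and 0.12 without VEH replicate 4. For GPS2, another core subunit, the log2 fold change was 0.58 (standard error 0.70), between 0.31 without VEH replicate 5 and 1.13 without VEH replicate 6. It was 0.31 without VEH replicate 4 and 0.34 without CET replicate 2 as well. For TBL1X, a WD40 subunit, it was -0.38 (standard error 0.49), or 0.07 without CET replicate 3 and -0.70 after the ratio adjustment. No gene of this complex had groups apart.

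The SIN3 complex had 16 measured genes, 6 with means above VEH and 10 below, and the median log2 fold change was -0.42. As deposited 3 were above and 13 below, with array medians subtracted 2 and 14, and with cyclic loess 7 and 9. Without CET replicate 3 these counts were 3 and 13 and without CET replicate 2 4 and 12. The medians under these settings lay between -0.63 and -0.30. The value of -0.63 came with array medians subtracted, where the median over all genes above the dim limit was -0.30. The mean log2 signal of the list on each array was 9.47 to 9.93 in CET and 9.99 to 10.29 in VEH samples. These means include ING2, described next, and were not tested without it. The small gap between the ranges is therefore not read as a difference of the complex. ING2, a subunit that reads methylated histone H3, had log2 signals of 6.69, 6.20 and 5.66 in CET and 8.77, 9.14 and 8.78 in VEH samples. All CET arrays lay under the dim limit and all VEH arrays above it, and CET replicate 1 here stood with the other CET arrays. ING2 was thus among the measured genes through its VEH arrays alone, and the log2 fold change of -2.71 (standard error 0.66, limma adjusted p of 0.83) rests on CET signals below the limit. ING1, the related subunit, had 9.90, 9.27 and 9.21 in CET and 10.63, 10.19 and 10.44 in VEH samples, a log2 fold change of -0.96 (standard error 0.44). At HDAC2, a catalytic subunit, the groups did not overlap either, and the log2 fold change was -0.77 (standard error 0.43). At HDAC1, the other catalytic subunit, the groups overlapped, and the log2 fold change was -0.93 (standard error 0.60).

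Of 12 other measured corepressors, 5 had means above VEH and 7 below, with a median log2 fold change of -0.10. The paralogs CTBP1 and CTBP2, which bridge repressors to chromatin-modifying enzymes, had log2 fold changes of 1.0 (standard error 0.52) and -0.59 (standard error 0.45), and their groups overlapped. CTBP1 was 1.57 without CET replicate 1, 0.61 as deposited and 0.40 once array medians were subtracted, and CTBP2 was -0.20 without CET replicate 2, -0.99 after median subtraction and -0.23 after the ratio adjustment.

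**Figure D4:**
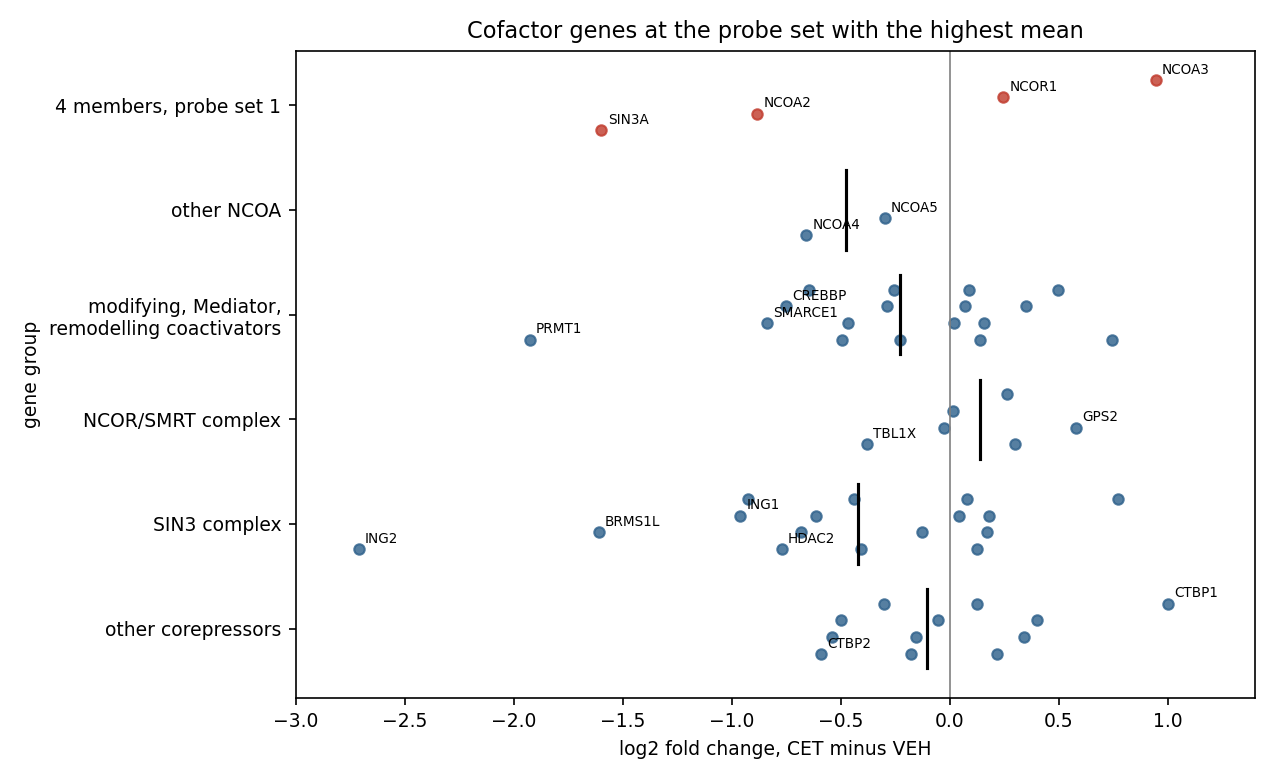
Log2 fold change, CET minus VEH (horizontal axis), at the brightest probe set of the 4 members (red) and of the measured genes of 5 cofactor lists (blue), with the median of each list as a black bar. ING2 at -2.71, with its CET mean below the dim limit, lies farthest from 0, and the SIN3 complex has a median of -0.42 against 0.14 for the NCOR and SMRT complex.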

How the data were processed

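The deposited intensity values were used: MAS5 signals, 1 per probe set on a linear scale, which the authors produced with Microarray Suite 5.0 and scaled on each array to the same trimmed mean of 500 (2% removed at each end). No detection calls were at hand, so probe sets in the lowest 40 percent by mean log2 signal were called dim. A floor of 1 was set on the signals before taking log2, and arrays were quantile-normalized. Of 52865 probe sets, 158 controls were then left out. The difference of CET and VEH means was fitted in R 4.3.3 with limma 3.58.1 (eBayes with trend, no covariate), and p-values were adjusted by Benjamini-Hochberg, with 0.05 as threshold. The procedure was tested on simulated data first. Precision is set by the number of arrays: replicates had a median SD of 0.846 on the log2 scale.

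Named genes were every probe set of the 4 members, at most the 4 genes of each cofactor list with the smallest limma p, and the 3 genes most correlated with each member. EP300 and HDAC1 were added beside CREBBP and HDAC2 and are given for the main comparison only. Among the list genes, those given in the text were picked with their values in view. The members and lists were chosen with earlier results of these data known. Levels were not compared between probe sets, which differ in how well they bind. The alternatives were the signals as deposited, array medians, cyclic loess, a floor at the 20th percentile, a pseudocount of 16, removal of dim probe sets, array weights, limma without trend, the methods' t-test, adjustment for the 3' to 5' ratio, leaving out each array, and the mean or median over the probe sets of a gene. Cofactor list genes were carried through the same alternatives, a choice made after seeing the data, as were the counts without ING2.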

Additional observations from a re-analysis of the deposited data

Results flagged for a closer look

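In CET replicate 2, the 3' signal of the GAPDH control probe sets, which the comparison of CET with VEH does not use, was 142.9 times the 5' signal, above the 1.79 to 7.31 times of the VEH arrays.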

How the results depend on the processing

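No member probe set passed the adjusted p under any of the 16 alternatives. At an unadjusted p under 0.05, none in the main comparison became 2 with array weights (NCOA2 probe set 1 and SIN3A), 1 with the methods' t-test (NCOR1 probe set 2), 1 after adjustment for the 3' to 5' ratio (NCOA3 probe set 1) and 0 to 2 with single arrays left out. Of all probe sets, 9.65% reached that level with array weights, 5.18% with the t-test and 5.06% after the ratio adjustment, beside 5.39% in the main comparison. With single arrays left out the share was 3.22% to 13.3%, highest without CET replicate 1. Members whose groups did not overlap numbered 2 with array medians subtracted, which adds NCOA2 probe set 1, where 12.4% of all probe sets were apart. They numbered 1 to 4 with single arrays left out, 4 without CET replicate 1 and 4 without VEH replicate 6. Without these arrays, 31.9% and 19.2% of all probe sets were apart. NCOR1 probe set 2 was apart in every setting. Settings that change only the test reuse the same normalized values, and groups already apart stay apart with an array left out. Only the settings that change the signal values themselves could have given another outcome. The sign turned at NCOA3 probe set 4 to 0.13 as deposited and 0.015 after that adjustment, and after that adjustment also at NCOA2 probe set 3 (-0.053), NCOR1 probe set 3 (-0.12) and NCOR1 probe set 5 (0.17). For NCOR1 as a gene it turned to -0.30 with the mean and -0.20 with the median over probe sets. With single arrays left out, signs turned within ranges of -0.82 to 0.0075 (NCOA2 probe set 2), -0.21 to 0.44 (NCOA2 probe set 3), -0.79 to 0.21 (NCOA3 probe set 3), -0.27 to 0.17 (NCOA3 probe set 4), -0.40 to 1.32 (NCOA3 probe set 6), -0.080 to 0.66 (NCOR1 probe set 1), -0.30 to 0.57 (NCOR1 probe set 3), -1.19 to 0.60 (NCOR1 probe set 5), -0.62 to 0.073 (TBL1X) and -1.03 to 0.10 (TRIM28, a corepressor at -0.50). The median of the other corepressors was 0.030 as deposited, 0.092 after the ratio adjustment, and -0.27 to 0.15 with single arrays left out. The cause of these turns was not tested. As deposited, the median of all probe sets was 0.17, so member values there are relative to that shift. For the cofactor lists the reference is the median over genes above the dim limit, which was -0.097 as deposited. The other 7 members kept their sign throughout. No paired analysis was possible because the replicate numbers, 1 to 3 and 4 to 6, are not shared by the groups and the labels do not say which samples came from 1 monkey.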
